A study of Mus musculus with 24 samples.

Results

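Valine tRNAs carry valine to the ribosome, and in the mouse genome they come with the anticodons AAC, CAC and TAC. The genes described here are those whose name ends in Val and 1 of these anticodons: 22 of the 435 tRNA genes among 53900 counted features, 8 with AAC, 11 with CAC and 3 with TAC. The table of tRNA fragments lists each gene under 3 kinds of fragment, which gives 66 valine features of 1305. Counts came from 24 libraries of mouse embryonic stem cells, grown with the kinase inhibitors CHIR99021 (3 µM) and PD0325901 (1 µM) and LIF. In the CLIP part (crosslinking and immunoprecipitation), 2 clones of the E14 line with HA- and His-tagged Tet2, clone 65 and clone 75, were given 4-thiouridine (500 µM, 4 hours) and UVB (400 mJ/cm2). Both clones were sampled as 2 TET2 CLIP and 2 input libraries. Controls and pull-downs thus carried the same tagged allele, and each clone is a single line. In the RIP part (RNA immunoprecipitation), untreated B6;129 cells gave 2 libraries of RNA recovered as 5-hydroxymethylcytosine (hm5C) RNA and 2 input libraries. Small RNA libraries were made from RNA selected at 14 to 38 nt from untreated cells: 3 WT and 3 Tet2 KO libraries in experiment 1, and 3 E14 and 3 Tet2 KO libraries, from a separate knockout set, in experiment 2. The labels give B6; 129 as the strain of all 12, E14 included, and do not give the knockout allele. The fragment table holds tRNA rows alone, so loss of Tet2 could not be checked in it.

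The codons for valine begin with GU and differ in the third base, and the AAC, CAC and TAC isoacceptors share them. The first base of the AAC anticodon is edited to inosine in the mature tRNA. Several valine tRNAs carry 5-methylcytosine placed by Trdmt1 (also called Dnmt2) and Nsun2, and hm5C arises when the dioxygenase TET2 oxidises that base. Cut tRNAs give small RNAs that are grouped, by the usual naming, as tRF5 from the 5′ end and as tRF3a (shorter) and tRF3b (longer) from the 3′ end. How the deposited table drew these kinds is not given in the sources used here.

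Total counts ran from 913002 to 4729463 in CLIP inputs, 221060 to 453944 in TET2 CLIP, 4641963 to 4889943 in RIP inputs and 1564014 to 2100187 in hm5C RIP. The fragment libraries held 96070 to 173450 tRNA-derived counts, and reads that fall outside tRNAs are not in that table. WT replicate 1 of experiment 1 stood apart before any comparison: tRF5 took 84.5% of its fragment counts outside valine, against 67.2% and 66.9% in the other WT libraries. Values that rest on it are therefore given below by library or, for some, with and without it. In the CLIP inputs, 9 of 10 embryonic stem cell markers had at least 10 counts in every library, with a summed level of 1021 to 1896 CPM (CPM being edgeR's counts scaled to library size and TMM factor). None of 6 fibroblast and 6 extraembryonic endoderm markers did (16.9 to 19.7 and 3.29 to 13.5 CPM), while 2 of 5 trophoblast markers did (218 to 454 CPM). No marker was at 0 in all inputs, and the part of these cells in the results was not tested. In bulk libraries, fewer cells of a type and less RNA per cell cannot be told apart.

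The 22 genes were counted very unevenly. RefSeq (GRCm38.p6, the assembly of mm10) lists 22 valine tRNA genes as well, with matching numbers in all 12 pairs of chromosome and anticodon, and 10 of the members lie on chromosome 13. Chromosome and anticodon place 8 of them on 1 RefSeq gene each. Among these are chr11.tRNA208-ValAAC (chromosome 11, 48856637 to 48856709), chr17.tRNA391-ValCAC (chromosome 17, 59068708 to 59068780) and chrX.tRNA460-ValTAC (chromosome X, 160766110 to 160766182). In RIP, 2 AAC genes of chromosome 13 held 71.7% of all valine counts: chr13.tRNA974-ValAAC with 3649 and chr13.tRNA986-ValAAC with 2835 over 4 libraries. In CLIP, chr13.tRNA98-ValCAC led with 51 counts over 8 libraries, followed by chr6.tRNA10-ValCAC with 36. Among fragments, chr13.tRNA93-ValAAC and chr13.tRNA97-ValCAC were the most counted, with 25436 and 25262 over 12 libraries.

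Some genes differed sharply between the tables. Of the 4 genes at 0 in every CLIP and RIP library, 3 (chr1.tRNA710-ValCAC, chr3.tRNA284-ValCAC and chr3.tRNA48-ValAAC) held 15901 to 17116 fragment counts each. Low in all tables were chr4.tRNA1177-ValAAC, with 2 CLIP, 0 RIP and 1 fragment count (a tRF3a), and chr13.tRNA976-ValCAC, with 3, 4 and 58. Most AAC and CAC genes gave mainly tRF5, but chr6.tRNA10-ValCAC and chr3.tRNA928-ValCAC gave mainly tRF3a, with 1442 and 1390 counts of it against 187 and 0 of tRF5. How reads that match several copies were assigned is not given in the sources used here.

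**Figure D1:**
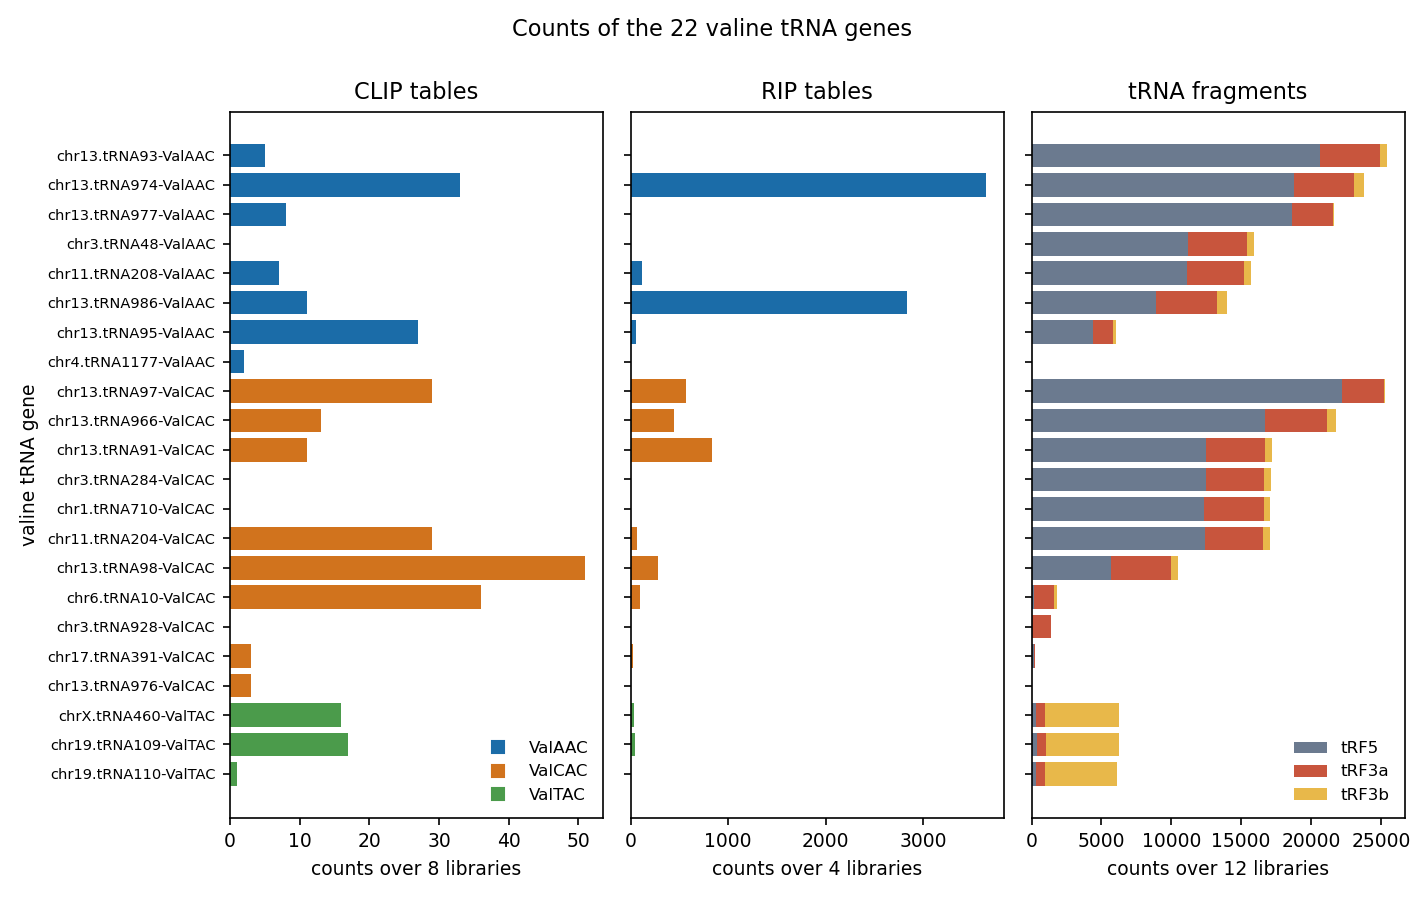
Counts of each of the 22 valine tRNA genes (rows, coloured by anticodon) summed over the 8 CLIP libraries, the 4 RIP libraries and the 12 small RNA libraries, the last split by fragment kind. In the RIP panel 2 AAC genes hold 71.7% of the counts, and in the fragment panel the 3 TAC genes are mostly tRF3b and most other genes are mostly tRF5.

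Counts of several copies were alike, and since near-identical copies can share reads, values of a single copy are uncertain. For tRF3a, 19 genes had at least 500 counts, and 61 of their 171 pairs differed by no more than sampling noise over 12 libraries (chi-square per degree of freedom under 1.75). Of these pairs, 33 joined an AAC to a CAC gene, and 11 AAC and CAC genes formed 1 such group. No TAC gene fell with another anticodon in any of 48 pairs, the closest pair lying at 37.4 on that measure. For tRF5, 8 of 91 pairs agreed within sampling noise and 0 of 49 across anticodons. AAC and CAC copies thus differed beyond sampling noise for tRF5, while many did not for tRF3a, where TAC copies stood apart. With counts this high small differences exceed sampling noise: for tRF5, chr13.tRNA93-ValAAC and chr13.tRNA97-ValCAC lay at 5.88 with 20651 and 22223 counts. Such differences do not show that copies share no reads, and sums over an anticodon may count a read at several copies. For this reason each anticodon was also summed before the fit.

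The CLIP comparison set RNA bound to tagged TET2 against the input RNA. Summed over their genes, the AAC and the CAC valine tRNAs were higher in TET2 CLIP than in input, and by about the same amount. The AAC sum was 44.3 and 20.6 CPM in TET2 CLIP of clone 65 and 47.2 and 19.8 in that of clone 75, against 3.41, 4.21, 6.60 and 7.64 in the inputs. The CAC sum was 55.4 and 87.6 CPM in TET2 CLIP of clone 65 and 72.0 and 39.7 in that of clone 75, against 10.5, 6.22, 15.8 and 12.4 in the inputs. All 4 TET2 CLIP libraries stood above all 4 inputs for both anticodons.

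The AAC sum changed by log2 2.67 (SE 0.45, edgeR adjusted p 4.6e-05) and the CAC sum by 2.66 (SE 0.32, edgeR adjusted p 1.09e-07). Both were called among 10291 features, of which 8.66% were called higher. The other 35 isoacceptors tested had a median of 3.05, and 34 of them were called higher, so a rise in TET2 CLIP was the rule among tRNAs. In clone 65 the log2 changes were 3.01 for AAC and 3.17 for CAC, and in clone 75 they were 2.32 and 2.15, all 4 called, where 7.93% and 5.89% of features were called higher. Within a clone these calls rest on few libraries. In clone 65 AAC lost its call without input replicate 1 (2.85) or TET2 CLIP replicate 1 (2.201). In clone 75 it did so without clone 65 input replicate 1 (2.24), either clone 75 input (2.16 and 2.38) or TET2 CLIP replicate 1 (1.33), where CAC lost its call too (1.47). The difference of clones did not pass the test for AAC (0.70, SE 0.80) or CAC (1.02, SE 0.59; edgeR adjusted p 0.733 and 0.429), a test that called 2.58% of features.

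The TAC sum did not pass the count filter, which asks for roughly 10 counts, scaled to depth, in a minimum number of libraries. It stood at 16.6, 5.15, 13.5 and 3.97 CPM in TET2 CLIP against 0.620 to 3.34 in the 4 inputs, from 1 to 6 counts per TET2 CLIP library. These ranges do not overlap, but 2 of the TET2 CLIP values rest on a single count, below the 3 counts that a count of 0 allows. The anticodons kept similar shares of the valine counts: AAC took 28.9% ± 4.85 of them in input and 30.8% ± 8.86 in TET2 CLIP, CAC 59.5% ± 10.4 and 60.4% ± 12.8, and TAC 11.6% ± 5.65 and 8.81% ± 4.34 (SD, n = 4). None of these differences passed an exact permutation test (two-sided, p 0.771, 0.943 and 0.457, adjusted 0.857, 1 and 0.722 over 30 shares), where the smallest p the design allows is 0.0286.

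Depth limited what single genes could show. All valine genes together had 118 counts over the TET2 CLIP libraries and 184 over the inputs, no gene exceeded 14 counts in a library, and 8 genes had 3 or fewer in total. Valine took 0.971% of the tRNA counts in TET2 CLIP of clone 65 and 0.589% in its input, and 1.71% and 1.25% in clone 75 (means of n = 2). The chr13.tRNA98-ValCAC gene was the 1 member to pass the filter, with 16.5 ± 10.6 against 3.58 ± 1.53 CPM (n = 4) and log2 2.35 (SE 0.63, edgeR adjusted p 0.0082). Of the 10334 features tested, 8.99% were called higher. Its 4 TET2 CLIP libraries read 5.53, 30.8, 13.5 and 15.9 CPM and its inputs 1.83 to 5.27. The lowest TET2 CLIP value lay close above the highest input, and it rests on a single count, below the 3 counts that a count of 0 allows. The call was lost without any 1 of 6 libraries (both inputs of both clones, TET2 CLIP clone 65 replicate 2 or clone 75 replicate 1), where the log2 change was 1.30 to 2.55.

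**Figure D2:**
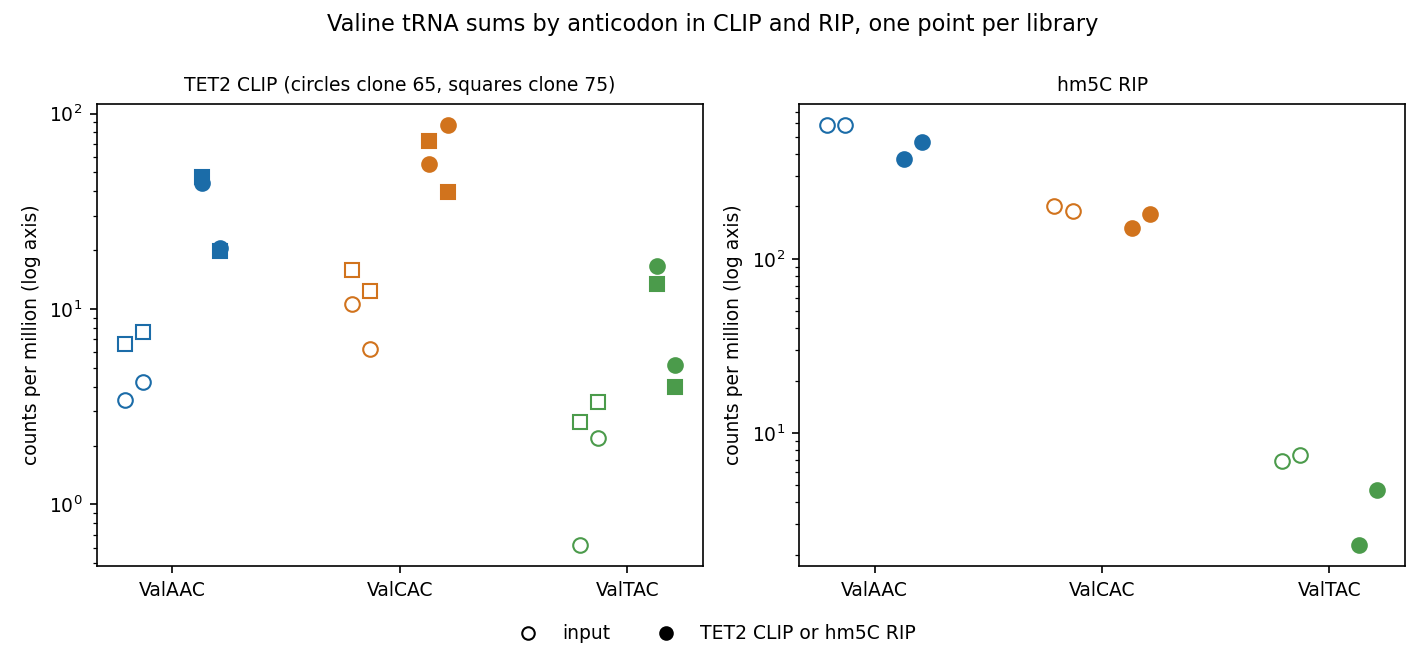
Valine tRNA sums by anticodon, in CPM on a log axis, 1 point per library, for TET2 CLIP with its inputs and for hm5C RIP with its inputs. TET2 CLIP points lie above input points for each anticodon, while hm5C RIP points lie somewhat below input points.

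The hm5C RIP comparison asked which RNAs were recovered as hm5C RNA. Valine tRNAs were not called in it in either direction with the scaling used. Of 11 valine genes tested, edgeR called 0, while 33% of the 2081 features were called higher and 18.9% lower. None had an unadjusted p under 0.05, and DESeq2 called 0 as well. The log2 changes ran from -0.74 for chr19.tRNA109-ValTAC to 0.39 for chr11.tRNA204-ValCAC. The most counted gene, chr13.tRNA974-ValAAC, read 293 and 298 CPM in input and 242 and 277 in hm5C RIP (log2 -0.19, SE 0.25). Its neighbour in rank, chr13.tRNA986-ValAAC, read 249 and 242 against 172 and 169 (log2 -0.53, SE 0.24, edgeR adjusted p 0.11). The leading CAC gene, chr13.tRNA91-ValCAC, read 63.5 and 67.0 against 57.0 and 72.2 CPM (log2 -0.01, SE 0.26). The first 2 genes were lower in both hm5C libraries than in both inputs, and the third overlapped.

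The sums gave log2 -0.48 for AAC (SE 0.23), -0.23 for CAC (SE 0.23) and -0.99 for TAC (SE 0.55), with edgeR adjusted p 0.0967, 0.429 and 0.145, where 32.6% of features were called higher and 22.3% lower. The TAC sum rested on 27 and 33 counts in input and 4 and 11 in hm5C RIP. AAC took 74.4% ± 0.794 of the valine counts in input and 71.3% ± 0.607 in hm5C RIP, and CAC 24.7% ± 0.855 and 28.1% ± 0.808 (SD, n = 2). These shares did not overlap between groups, and 0.333, the exact permutation p of each, is the smallest that 2 against 2 libraries allow.

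The sign of the RIP values turned with the scaling. A single gene, Acsl6, took 55.2% and 60.6% of the counts in the hm5C libraries. With Acsl6 left out and libraries scaled by their size alone, the median of all features moved by 1.84 to 1.99, and 66.8% of all features were called higher. The valine sums were then 1.18 for AAC, 1.42 for CAC and 0.65 for TAC, all below that median. The first 2 sums and 8 valine genes were called higher. Valine took 4.15% ± 0.0753 of the tRNA counts in input and 5.32% ± 0.658 in hm5C RIP, and 0.0690% ± 0.00263 and 0.0663% ± 0.00979 of all counts (SD, n = 2).

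Among tRNA fragments, valine was one of the most counted amino acids. A read may be counted at several alike copies, so these shares and places describe counts and not amounts of fragment. It took 22.8% ± 2.38 of the fragment counts in WT and 21.6% ± 0.707 in Tet2 KO of experiment 1, the first place among 22 amino acid names. In experiment 2 it took 13.5% ± 1.14 in E14 and 12.8% ± 0.427 in Tet2 KO (SD, n = 3), the third place after glycine and glutamate. Library kits differed between the experiments (TruSeq and NEBNext), as did the control line and the knockout set, and these cannot be told apart.

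The anticodons gave different kinds of fragments. In WT cells tRF5 made up 90.8% ± 1.62 of the AAC and 87.9% ± 3.81 of the CAC fragments, while TAC fragments were 88.8% ± 11.2 tRF3b (SD, n = 3). In all 4 groups TAC had the highest tRF3b share of the 48 isoacceptors with at least 500 counts: 96.9% in Tet2 KO of experiment 1, 50.6% in E14 and 40.6% in Tet2 KO of experiment 2. The median over the 45 other isoacceptors was 17.9% in WT and 5.49% in E14, and the highest of them reached 70.5% and 40.9%. These shares are a description of the libraries and were not tested between isoacceptors. In WT replicate 1 the TAC share of tRF3b was 75.9%, against 96.2% and 94.2% in the other WT libraries.

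**Figure D3:**
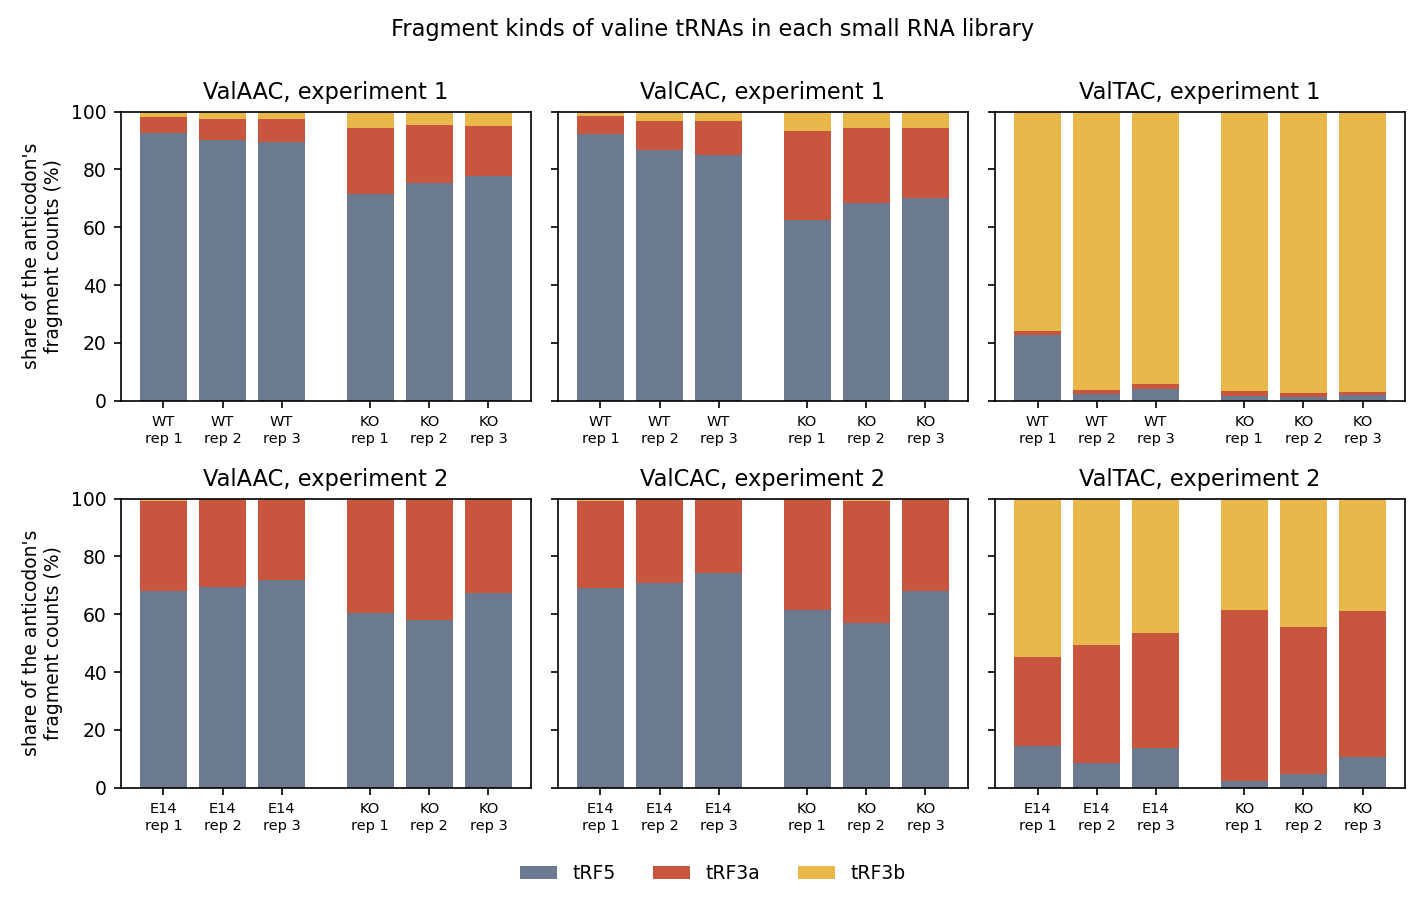
Share (percent, stacked to 100) of tRF5, tRF3a and tRF3b in the fragment counts of each valine anticodon, 1 bar per small RNA library, for experiment 1 (top) and experiment 2 (bottom). In both experiments the tRF5 part of the AAC and CAC bars is smaller in each Tet2 KO library than in each control library, and the TAC bars hold far more tRF3b than the others.

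In experiment 1, AAC and CAC valine tRNAs had fewer tRF5 and more tRF3a in Tet2 KO cells than in WT cells. The share of tRF5 among AAC fragments was 92.6%, 90.3% and 89.4% in WT and 71.4%, 75.3% and 77.8% in Tet2 KO. Among CAC fragments it was 92.2%, 86.7% and 84.9% in WT and 62.4%, 68.2% and 70.0% in Tet2 KO. The groups did not overlap for either anticodon.

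The share of tRF3a took most of the difference, going from 6.79% ± 1.27 to 20.01% ± 2.73 of AAC and from 9.39% ± 2.97 to 27.1% ± 3.45 of CAC fragments (SD, n = 3). For TAC fragments the tRF3a share was 1.46% ± 0.213 in WT and 1.47% ± 0.319 in Tet2 KO. Where groups did not overlap, the exact permutation p was 0.1 (two-sided), the smallest that 3 against 3 libraries allow, or 0.129 adjusted over 18 kind shares. Fragments of other tRNAs moved too, also without overlap. Their tRF5 share was 84.5%, 67.2% and 66.9% in WT (72.9% ± 10.1) and 46.6%, 47.9% and 50.7% in Tet2 KO (48.4% ± 2.09).

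On the CPM scale the AAC tRF3a sum was 8272, 9218 and 8884 in WT and 18982, 15661 and 14590 in Tet2 KO, and the CAC tRF3a sum 10957, 11621 and 11103 against 23765, 18993 and 18300. Every Tet2 KO library was above every WT library. The log2 changes were 0.90 for AAC (SE 0.17) and 0.86 for CAC (SE 0.18), both called higher (edgeR adjusted p 0.000491 and 0.00142). Of 135 sums tested, 25.9% were called higher and 20.7% lower, and the 41 other isoacceptors had a median tRF3a change of 0.30. The TAC tRF3a sum read 269, 238 and 301 CPM in WT and 372, 333 and 256 in Tet2 KO, which overlap (log2 0.26, SE 0.26). With library size alone as the scaling, all features shifted up by a median of 0.46, and the AAC and CAC values were 1.39 and 1.36. As a part of all tRF3a counts, valine stood at 12.9% ± 1.37 in WT and 15.8% ± 0.782 in Tet2 KO (SD, n = 3).

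The tRF5 sums went the other way. The AAC tRF5 sum was 140976, 119046 and 100070 CPM in WT and 59536, 59075 and 65533 in Tet2 KO, and the CAC tRF5 sum 165317, 99243 and 79189 against 47945, 49698 and 52752. Again the groups did not overlap, and WT replicate 1 was the highest of the WT libraries for both. The log2 changes were -0.97 for AAC (SE 0.32) and -1.19 for CAC (SE 0.34; edgeR adjusted p 0.019 and 0.00944), against a median tRF5 change of -0.54 over 43 other isoacceptors. Without WT replicate 1 both were -0.83 and still called lower. With library size alone they were -0.42 and -0.58, also called. Both calls were lost without any 1 Tet2 KO library (-0.94 to -1.02 for AAC, -1.16 to -1.23 for CAC).

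For TAC the tRF5 sum read 4492 CPM in WT replicate 1 and 449 and 724 in the other WT libraries, against 402, 239 and 475 in Tet2 KO. The groups overlap, and 1 library sets the WT mean: the log2 change was -2.34 (SE 1.10, edgeR adjusted p 0.141) with it and -0.67 (edgeR adjusted p 0.0416) without it. The longer 3′ fragments, tRF3b, had log2 values of 0.41 for AAC (SE 0.17), 0.51 for CAC (SE 0.17) and 0.38 for TAC (SE 0.18). Of these the CAC sum was called (edgeR adjusted p 0.021), a call lost without WT replicate 3 (0.43) or any 1 Tet2 KO library (0.42 to 0.57), and AAC (0.0582) and TAC (0.0922) were not. The TAC tRF3b sum, the main TAC fragment, stood at 15005, 17436 and 16631 CPM in WT and 21493, 19791 and 22521 in Tet2 KO.

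**Figure D4:**
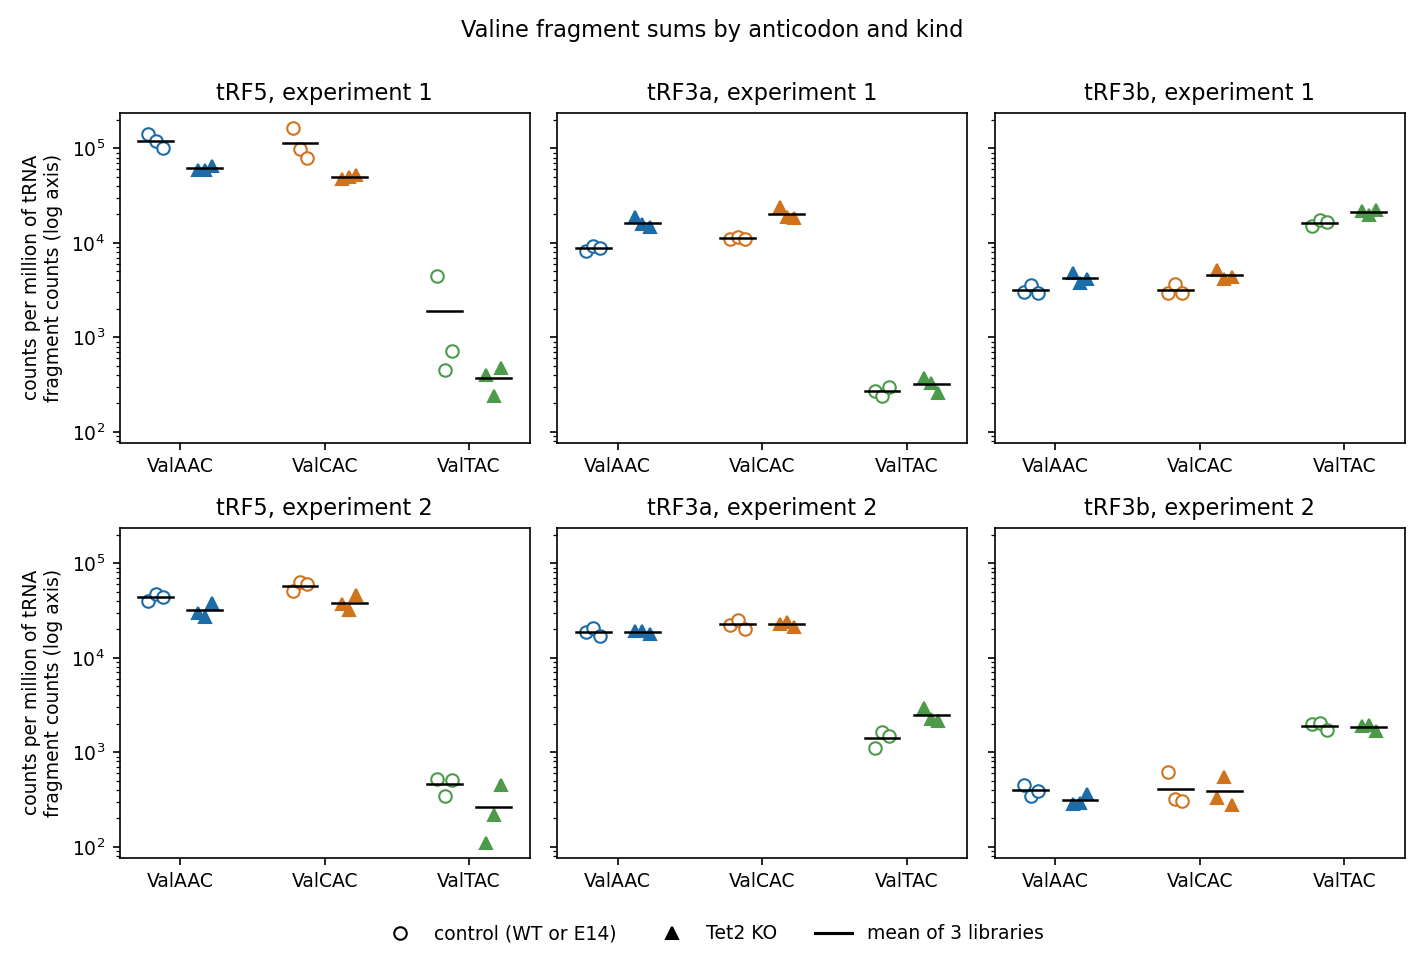
Valine fragment sums by anticodon and kind in each small RNA library, in CPM on a log axis (open circles WT or E14, filled triangles Tet2 KO, lines the means of 3 libraries). AAC and CAC tRF5 sums are lower in all Tet2 KO libraries of both experiments, AAC and CAC tRF3a sums are higher in Tet2 KO in experiment 1 alone, and the TAC tRF3a sum is higher in Tet2 KO in experiment 2.

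Single copies followed the sums. Of 54 valine fragment features tested in experiment 1, 18 were called higher and 11 lower, where 21.2% of the 598 features tested were called higher and 16.7% lower. Of the tRF3a features 14 of 19 were called higher (45.1% of all tRF3a features were), 6 of 7 AAC, 8 of 9 CAC and 0 of 3 TAC. The called ones lay between 0.86 and 1.06. They fell in groups of 11 and 3 copies alike within sampling noise, so their calls may not be separate observations. The AAC gene chr11.tRNA208-ValAAC read 1391, 1475 and 1606 CPM in WT and 3544, 2994 and 2637 in Tet2 KO (log2 1.04, SE 0.16). The AAC and the CAC gene not called, chr13.tRNA97-ValCAC and chr13.tRNA977-ValAAC, were at 0.43 and 0.48, and these copies also agreed within sampling noise with each other and with no other gene. They read 240 to 361 CPM in WT.

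The tRF5 features were called lower in 11 of 19 cases, against 34.8% of all tRF5 features: 4 of 7 AAC, 7 of 9 CAC and 0 of 3 TAC. They formed 2 sets. For 7 genes, chr1.tRNA710-ValCAC, chr11.tRNA204-ValCAC, chr13.tRNA91-ValCAC, chr13.tRNA966-ValCAC, chr3.tRNA284-ValCAC, chr11.tRNA208-ValAAC and chr3.tRNA48-ValAAC, the changes were -1.28 to -1.38, and -0.75 to -0.83 without WT replicate 1, all 7 still called. In these WT replicate 1 was high: chr3.tRNA48-ValAAC read 21953 CPM there, 10643 and 7594 in the other WT libraries, and 4380, 5493 and 5581 in Tet2 KO. Several of these copies agreed within sampling noise, so their calls may not be separate observations.

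The most counted tRF5, of chr13.tRNA97-ValCAC, read 31548, 30793 and 27901 CPM in WT and 17706, 17311 and 18396 in Tet2 KO. These groups lie far apart, yet the change of -0.76 (SE 0.41, edgeR adjusted p 0.157) was not called, and neither were those of chr13.tRNA93-ValAAC, chr13.tRNA974-ValAAC and chr13.tRNA977-ValAAC at -0.77 to -0.79. The remaining called ones were chr13.tRNA95-ValAAC (-0.75), chr13.tRNA986-ValAAC (-0.81), chr13.tRNA98-ValCAC (-0.85) and chr17.tRNA391-ValCAC (-3.33). With library size alone the calls of chr13.tRNA98-ValCAC and chr13.tRNA986-ValAAC were lost (-0.35 and -0.36). The change of chr17.tRNA391-ValCAC rested on few counts, 46, 17 and 16 in WT and 5, 4 and 1 in Tet2 KO, and was -2.58 without WT replicate 1. Without WT replicate 1 the counts of called features were 20 higher and 16 lower, and without Tet2 KO replicate 1, 2 or 3 the lower count was 1, 2 and 1. Of the tRF3b features 4 of 16, all CAC, were called higher (22.3% of all tRF3b features were), at 0.55 to 0.67.

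In experiment 2, with E14 as the control, tRF5 of AAC and CAC genes was again lower in Tet2 KO, and the tRF3a sum of TAC was higher. The AAC tRF3a sum read 18518, 20727 and 17082 CPM in E14 and 19289, 19403 and 17938 in Tet2 KO, and the CAC sum 22146, 25371 and 20346 against 22792, 23811 and 21396. Both overlap, with log2 changes of 0.01 (SE 0.16) and 0.00 (SE 0.17). The fit of single copies had its own scaling factors. In it the mean tRF3a CPM of each AAC and CAC copy tested was higher in Tet2 KO, with none called. Changes near none in these sums thus depend on the scaling. The TAC tRF3a sum read 1113, 1657 and 1470 CPM in E14 and 2956, 2260 and 2152 in Tet2 KO. Its groups did not overlap.

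The TAC change was 0.80 (SE 0.22, edgeR adjusted p 0.0321), called where 6.5% of 123 sums were called higher. The call was lost without E14 replicate 1 (0.65), E14 replicate 3 (0.83) or Tet2 KO replicate 1 (0.71). The share of tRF3a among TAC fragments was 30.9%, 40.9% and 39.7% in E14 and 59.3%, 50.8% and 50.3% in Tet2 KO. For AAC and CAC it was 29.8% ± 1.86 and 28.0% ± 2.42 in E14 and 37.4% ± 4.86 and 37.3% ± 5.31 in Tet2 KO (SD, n = 3). These shares did not overlap for any of the 3 anticodons (exact permutation p 0.1, the smallest possible, or 0.129 adjusted over 18 kind shares). Fragments of other tRNAs moved the same way, also without overlap. Of them tRF3a took 12.7%, 9.69% and 10.0% in E14 and 16.3%, 17.1% and 13.4% in Tet2 KO. How many single isoacceptors did so was not counted. As a part of all tRF3a counts, valine was lower in Tet2 KO (26.3% ± 0.988) than in E14 (29.6% ± 1.69; SD, n = 3). In single copies tRF3a was called higher for all 3 TAC genes, chr19.tRNA109-ValTAC (1.04), chrX.tRNA460-ValTAC (0.99) and chr19.tRNA110-ValTAC (0.89), and for none of 16 AAC and CAC genes, where 20.6% of all tRF3a features were called higher. The 3 TAC copies agreed within sampling noise, so they may not be separate observations. Without Tet2 KO replicate 1, 1 of the 3 was called.

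The CAC tRF5 sum of experiment 2 read 51139, 62567 and 59766 CPM in E14 and 36760, 32043 and 45860 in Tet2 KO, and the AAC sum 40149, 47463 and 44217 against 30069, 27198 and 37786. Groups did not overlap for either. The log2 changes were -0.60 for CAC (SE 0.18, edgeR adjusted p 0.0494) and -0.47 for AAC (SE 0.18, edgeR adjusted p 0.109), so CAC was called and AAC was not. In this fit 4.88% of the sums were called lower, and 42 other isoacceptors had a median tRF5 change of -0.23. The CAC call was lost without E14 replicate 2 (-0.54), E14 replicate 3 (-0.58), Tet2 KO replicate 1 (-0.51) or Tet2 KO replicate 2 (-0.43), and with library size alone its value was -0.34 and called. The TAC tRF5 sum, at 523, 343 and 511 CPM against 111, 218 and 454, was not called (-0.85, SE 0.39). As a part of all tRF5 counts, valine stood at 11.1% ± 0.998 in E14 and 9.69% ± 0.345 in Tet2 KO (SD, n = 3).

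Of 45 valine features tested singly in experiment 2, 3 were called higher and 9 lower, where 9.64% and 5.42% of the 498 features tested were. All 9 lower ones were tRF5 (9 of 19, against 14.4% of all tRF5 features), and all 9 were among the 11 called lower in experiment 1, that is 100% and 81.8% of the lists. Among them chr1.tRNA710-ValCAC, chr11.tRNA204-ValCAC, chr13.tRNA91-ValCAC and chr3.tRNA284-ValCAC agreed within sampling noise. So did chr11.tRNA208-ValAAC and chr3.tRNA48-ValAAC, and such copies may not be separate observations. No valine feature was called higher in both experiments. In experiment 1, 34.8% of all tRF5 features were called lower. The overlap of the lists was not counted over all features, so whether it is usual for tRF5 cannot be told. The tRF5 of chr13.tRNA98-ValCAC gave the smallest p, at 5218, 6358 and 6008 CPM in E14 and 3969, 3253 and 4533 in Tet2 KO (log2 -0.58, SE 0.16). The lower count fell to 0 without E14 replicate 2, 1 without E14 replicate 3, 1 without Tet2 KO replicate 1 and 3 without Tet2 KO replicate 2, so this list rests on single libraries.

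**Figure D5:**
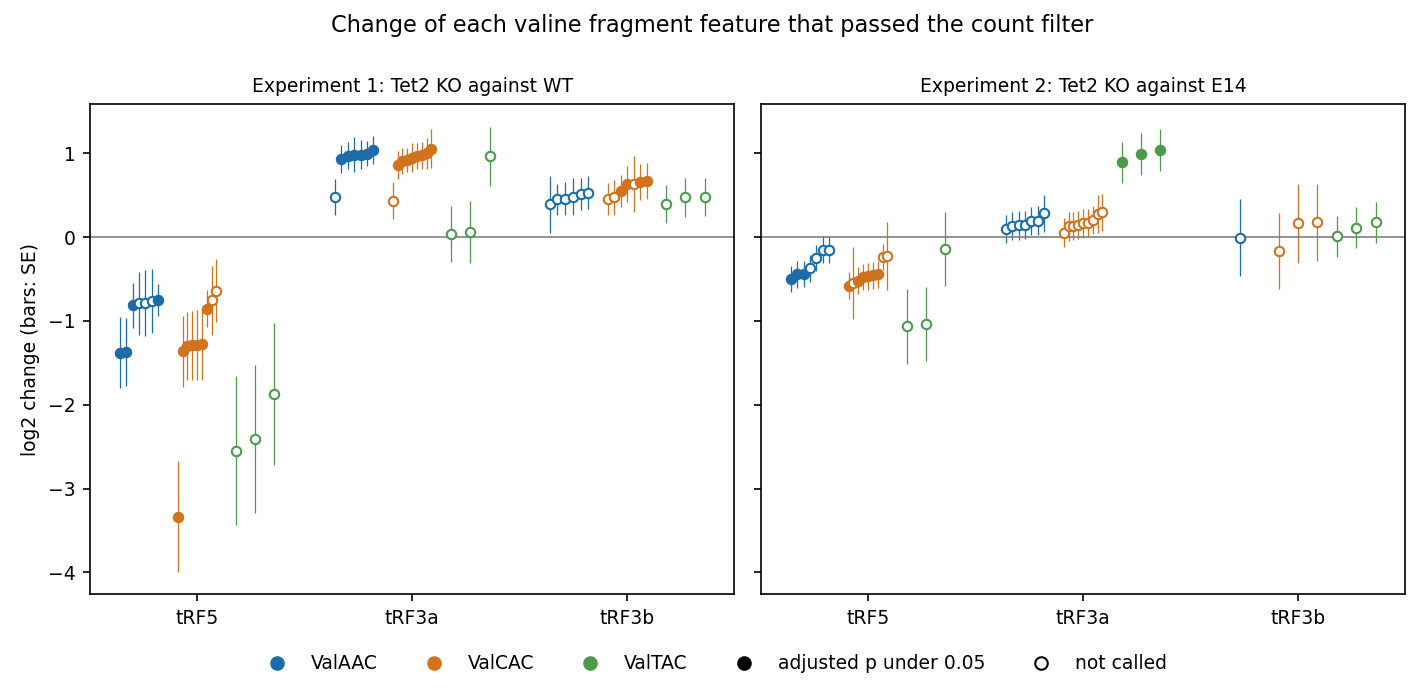
Log2 change (Tet2 KO against control, bars the standard error of the fit) of each valine fragment feature that passed the count filter, by kind and anticodon, filled where called at adjusted p under 0.05. In experiment 1 most AAC and CAC tRF3a points lie near 1 and in experiment 2 between 0.05 and 0.30, while the 3 TAC tRF3a points lie near 1 in experiment 2.

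No share of an anticodon among the valine fragments passed a test between Tet2 KO and control. TAC took 6.80% ± 1.15 of all valine fragments in WT and 12.3% ± 0.428 in Tet2 KO of experiment 1, and 2.57% ± 0.0644 in E14 and 3.94% ± 0.530 in Tet2 KO of experiment 2 (SD, n = 3). Within tRF3a the TAC share was 1.33% ± 0.180 in WT and 0.861% ± 0.0893 in Tet2 KO, and 3.30% ± 0.576 in E14 and 5.57% ± 0.864 in Tet2 KO. In neither experiment did the groups overlap for these shares, and within tRF3a the order of control and knockout was opposite in the experiments. The exact permutation p was 0.1 in each case, the smallest possible, or 0.3 adjusted over 30 shares. Within tRF3b the TAC share overlapped between groups, at 71.9% ± 1.64 in WT and 70.8% ± 2.23 in Tet2 KO, and 70.6% ± 5.43 in E14 and 72.7% ± 2.82 in Tet2 KO, and within tRF5 it overlapped too.

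A direct test of experiment 1 minus experiment 2, over all 12 libraries, gave a difference of 0.83 for the AAC tRF3a sum (SE 0.28) and 0.79 for the CAC tRF3a sum (SE 0.28). Both were called (edgeR adjusted p 0.0396 and 0.0497), where 8.03% of 137 sums were called higher. For the TAC tRF3a sum the difference was -0.61 (SE 0.35) and was not called, nor was any tRF5 or tRF3b difference of the 3 anticodons. Both calls sat close to the threshold: AAC lost its call without WT replicate 3, E14 replicate 1 or 2, or experiment 2 Tet2 KO replicate 2 or 3 (0.65 to 0.87), and CAC without WT replicate 3 or any 1 library of experiment 2 (0.62 to 0.85). Without WT replicate 2 or any 1 Tet2 KO library of experiment 1 the differences were larger, reaching 1.39 for AAC and 1.35 for CAC. Among single features the tRF5 of chr17.tRNA391-ValCAC differed by -2.51 (SE 0.62, edgeR adjusted p 0.00618), where 2.58% of 698 features were called lower.

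Genes that charge, process or modify valine tRNAs, given as a list, were read in the CLIP table as mRNAs or structured RNAs. Of 39 listed genes 32 were tested, 4 were called higher and 2 lower in TET2 CLIP (8.99% of all features were called higher and 5.83% lower), and the median was -0.03, the median over all features being -0.03 too. Vars, the valyl-tRNA synthetase gene, was lower in TET2 CLIP, at 54.4 ± 18.2 against 103.7 ± 9.74 CPM (n = 4; log2 -0.91, SE 0.22, edgeR adjusted p 0.00308). Pop1, a protein of RNase P, which trims the 5′ end of tRNAs, changed by -0.84. Higher were Rpph1, the RNA of RNase P (2.61), Tet3 (0.90), Elac2, which trims the 3′ end of tRNAs (0.89), and Dicer1, the small RNA endonuclease (0.66). Nsun2 was at -0.22 (SE 0.21) and Tet2 at -0.01 (SE 0.12), neither called, and Trdmt1, at 2.82 ± 1.75 CPM in input, did not pass the filter. The mitochondrial valine tRNA mt-Tv was at 50.7 ± 26.9 CPM in TET2 CLIP and 78.3 ± 11.8 in input (log2 -0.66, edgeR adjusted p 0.0765). In hm5C RIP 9 of the listed genes were tested, with 4 called higher and 2 lower (33% and 18.9% over all features). The higher ones were Vars2 (3.82), Trub2 (3.24), Elp3 (2.66) and Trmt1 (2.44), and the lower ones mt-Tv (-1.42) and Rpph1 (-1.35).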

How the data were processed

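The deposited values were raw read counts per gene or fragment, whole numbers with differing column sums. The submitters' processing notes name build mm10, Bowtie2 2.2.6, STAR 2.5.3a, cutadapt and UMI-tools. The counter, strand use and treatment of reads matching several copies are not given in the sources used here. Replicates were biological per the series' design text, and their numbers were not taken as pairs in the main fits. Counts were tested over whole tables with edgeR 4.0.16 in R 4.3.3 (TMM, filterByExpr, robust quasi-likelihood F-test, Benjamini-Hochberg adjustment, threshold 0.05): CLIP over 8 libraries, RIP over 4, each small RNA experiment over 6 and their difference over 12. Before a second fit, which had its own scaling factors, tRNA rows were summed by amino acid, anticodon and kind. The test was checked on simulated counts. Shares were compared by exact permutation. Alternatives were DESeq2 1.42.0, other scalings, no count filter, the replicate block and leaving out libraries. Named were members passing the filter in CLIP or RIP, fragments called in either experiment or most counted, and from the pathway list its called genes, Vars, Nsun2, Trdmt1 and Tet2; mt-Tv and the genes singled out by their counts were added after their values were seen. Members and lists were chosen with earlier results of these data known. Floors cover counting error alone, while the SDs and SEs printed include the spread between libraries.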

Additional observations from a re-analysis of the deposited data

Results flagged for a closer look

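The change of the AAC tRF3a sum with loss of Tet2 differed between the small RNA experiments by 0.83 (log2, experiment 1 minus experiment 2; 12-library fit), and that of the CAC tRF3a sum by 0.79. The Tet2 KO libraries of experiment 1 were above all their WT libraries in both sums, and those of experiment 2 overlapped E14. As a share of the anticodon's fragments, tRF3a was also higher in Tet2 KO without overlap in experiment 2 (AAC 29.8% to 37.4%, CAC 28.0% to 37.3%). Both differences lost their call without some single libraries, without the count filter and with the replicate block. The tRF3a counts of many AAC and CAC copies agreed within sampling noise, so the pair may not be separate observations.

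The tRF5 of chr17.tRNA391-ValCAC differed by -2.51 (SE 0.62, edgeR adjusted p 0.00618). It fell in experiment 1 (-3.33) and read 138, 203 and 154 CPM in E14 and 162, 105 and 158 in Tet2 KO of experiment 2 (-0.23). Kit, control line and knockout set changed together between the experiments and cannot be told apart.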

How the results depend on the processing

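Counts of called valine genes or fragments moved by over 1.5 times in these cases. Without the count filter 3 genes were called higher in CLIP (1 as reported, 0 to 3 over the left-out libraries), 2 lower in RIP (0) and 3 lower in experiment 2 (9, 0 to 12 over left-out libraries). RIP without Acsl6 gave 1 lower with TMM and 8 higher with library size alone. The DESeq2 Wald test gave 18 lower in experiment 1 (11, 1 to 16 over left-out libraries), and higher calls in experiment 2 ran from 1 to 3.

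In RIP the AAC sum was -0.96 without the filter, a call gained, and 1.18 without Acsl6 at library size alone, where CAC was 1.42 and TAC 0.65. Library size alone turned CAC to 0.14, chr13.tRNA91-ValCAC to 0.21 and chr13.tRNA974-ValAAC to 0.0304. Without Acsl6 as well, these 2 genes and chr13.tRNA986-ValAAC were at 1.501, 1.32 and 0.96. DESeq2 size factors and the Wald test put chr13.tRNA91-ValCAC at 0.014 each, and leaving out libraries at -0.37 to 0.0684.

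In experiment 1 calls were gained for AAC tRF3b with DESeq2 size factors (0.42), library size alone (0.90) and no filter (0.39), for TAC tRF3b with library size alone (0.86) and the Wald test (0.39), and for TAC tRF5 with the same 2 settings (-1.53 and -2.34). Over left-out libraries AAC tRF5 ran from -1.11 to -0.83, CAC tRF5 from -1.43 to -0.83, TAC tRF5 from -2.81 to -0.67, and CAC tRF3b from 0.42 to 0.62. In experiment 2, CAC tRF5 (-0.55) and TAC tRF3a (0.84) lost their calls without the filter. Values near 0 turned sign: CAC tRF3a to -0.0023 without the most counted fragment, and CAC tRF3b to 0.14 and TAC tRF3b to 0.22 with library size alone. Over left-out libraries AAC tRF3a ran from -0.0582 to 0.0924, CAC tRF3a from -0.0702 to 0.0939, CAC tRF3b from -0.41 to 0.31, TAC tRF3b from -0.12 to 0.0677, AAC tRF5 from -0.57 to -0.31, CAC tRF5 from -0.70 to -0.43, TAC tRF3a from 0.65 to 0.94 and TAC tRF5 from -1.46 to -0.41.

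Differences that turned sign over left-out libraries were the clone difference of the AAC sum in CLIP (-0.0135 to 1.56) and, between experiments, AAC tRF5 (-0.70 to 0.0407), CAC tRF3b (-0.0657 to 1.19), TAC tRF3a (-0.79 to 0.0034) and TAC tRF5 (-1.99 to 0.17). Shares did so for AAC (-0.585 to 6.05 points) and CAC (-4.67 to 5.24) in CLIP, TAC tRF3a in experiment 1 (-0.0928 to 0.192), and AAC tRF3b (-0.0828 to 0.0512) and CAC tRF3b (-0.0400 to 0.277) in experiment 2.

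Replicate numbers were not taken as pairs in the main fits. Correlations of deviations between libraries of the same number were -0.35 to 0.28, and so few libraries a group cannot show whether they pair. With the replicate block 2 fragments were lower in experiment 1 and 3 in experiment 2, the RIP AAC sum was called at -0.49, and AAC tRF5 (-0.96) and CAC tRF3b (0.51) of experiment 1 and CAC tRF5 (-0.61) and TAC tRF3a (0.80) of experiment 2 lost their calls, as did the AAC (0.82) and CAC (0.78) tRF3a differences between experiments, which without the filter were 0.72 and 0.68 and not called. The cause of these moves was not tested. Over both clones together, the CLIP sums of AAC and CAC kept their direction and call under every alternative run, while in clone 75 alone AAC lost its call with the replicate block (2.11). CLIP depth limits single valine genes, and 2 RIP libraries a group limit the size of change that can be called.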

Other observations

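A further valine-named row with the anticodon GAC, chr6.tRNA651-ValGAC, lies outside the 3 anticodons described. It had 0 counts in all 8 CLIP, 4 RIP and 12 small RNA libraries.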
